A study of Mus musculus with 12 samples.

Results

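Notch receptors, their ligands and their target genes were followed in mouse prostate organoids treated with an inhibitor of mitochondrial pyruvate import, an inhibitor of histone deacetylases, or both. The genes were the receptors Notch1, Notch2 and Notch3, the ligands Jag1, Jag2 and Dll1, and the targets Hes1, Hey1, Heyl and Nrarp. They were chosen by gene name, and all 10 were among the 24674 genes of the deposited table. The organoids, small cultures that epithelial cells form in a gel, came from basal cells of the prostate of wild-type C57BL/6 mice. They were given vehicle, UK5099 (which blocks the mitochondrial pyruvate carrier), butyrate (which inhibits histone deacetylases), or UK5099 and butyrate together, called the combination here. There were 3 samples in each of the 4 groups, and 12 in all. The labels give neither doses nor times, and nothing in them says that the samples of a group came from separate cultures or mice, so p-values measure the spread between these samples, which may be technical.

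Notch receptors are cell-surface proteins that are cut when a ligand of the Jagged or Delta-like family on a neighbouring cell binds them. The freed inner part enters the nucleus and joins RBPJ, a DNA-binding protein, to switch on targets such as the repressors Hes1, Hey1 and Heyl and the feedback inhibitor Nrarp. In stratified and glandular epithelia, the prostate included, this exchange between neighbouring cells is known for its part in the choice between basal, luminal and squamous fates.

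Abundance was measured by RNA-seq as TPM, a length-scaled abundance. In the deposited table each gene's fragments were divided by its genomic span, introns included. Levels of members are therefore compared between genes below only as exonic TPM. That was recomputed with the exonic length of each gene, which joins all its annotated exons and can exceed the length of its RNA. Sums of cell type markers stay on the genomic-span scale. Differences between groups are limma coefficients on log2(TPM + 1), which understate the change of low genes. A gene was called at an adjusted p-value under 0.01 with an absolute coefficient over 1. Between 33251839 and 43498954 fragments were recovered per sample. The first UK5099 and the first combination library stood apart from the others of their groups: in the 4 pairs that hold one of them the fragments differed by a chi-square per degree of freedom of 7.92 to 8.62, beside 2.06 to 3.02 in the other 8 pairs of replicates. With both left out, the called members were the same but for Hey1, which was also called under UK5099 (-1.03). The typical expressed gene itself moved: over the 13345 genes that averaged 1 TPM or more, the coefficients against vehicle had medians of -0.12 (UK5099), -0.30 (butyrate) and -0.41 (combination). When samples were rescaled by the median of ratios, the medians came to 0.0028, -0.034 and -0.032. A member with a coefficient near 0 on the deposited scale was therefore above the typical expressed gene under butyrate and the combination, and directions that this scaling turns are marked where they occur.

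Among the members, 2 ligands moved in opposite directions under butyrate, Dll1 upwards and Jag1 downwards. The stretches upstream of their RefSeq starts are shown for that reason, each as the 250 bases before the start, on the gene's own strand, in build GRCm38.p6. Jag1 has 1 such start and Dll1 has 2.
Jag1, chr2:137116521-137116770, minus strand: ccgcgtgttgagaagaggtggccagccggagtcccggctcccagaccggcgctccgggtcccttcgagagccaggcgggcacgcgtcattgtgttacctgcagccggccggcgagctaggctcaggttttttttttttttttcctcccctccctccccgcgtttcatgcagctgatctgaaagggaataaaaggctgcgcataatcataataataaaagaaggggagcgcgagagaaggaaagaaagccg
Dll1 first start, chr17:15375824-15376073, minus strand: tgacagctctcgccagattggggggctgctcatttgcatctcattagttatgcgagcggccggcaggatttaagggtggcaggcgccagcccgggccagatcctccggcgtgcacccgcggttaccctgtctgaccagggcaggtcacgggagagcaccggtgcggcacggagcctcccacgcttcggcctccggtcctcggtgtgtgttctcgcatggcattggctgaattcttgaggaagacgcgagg
Dll1 second start, chr17:15376933-15377182, minus strand: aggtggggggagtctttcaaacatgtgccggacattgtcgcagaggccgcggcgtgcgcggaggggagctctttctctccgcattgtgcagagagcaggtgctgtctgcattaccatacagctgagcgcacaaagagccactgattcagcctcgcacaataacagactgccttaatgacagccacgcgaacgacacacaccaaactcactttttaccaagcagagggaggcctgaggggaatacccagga
The windows were searched on both strands for the RBPJ core motif TGGGAA, which would have been set in capitals, and none of these 3 held it. RefSeq windows were matched for 7 of the 10 members (Notch1, Notch2, Notch3, Jag1, Jag2, Dll1 and Nrarp), as 8 windows, and 0 of the 8 held the motif. Of all 32851 windows of the same length, 21.6% did, and 8 windows are too few to set against that share. Hes1, Hey1 and Heyl had no window to search, so Nrarp was the only target searched. The Jag1 window was 57.2% G or C and the Dll1 windows were 64.0% and 56.0%, beside a median of 52.4% over all windows.

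**Figure D1:**
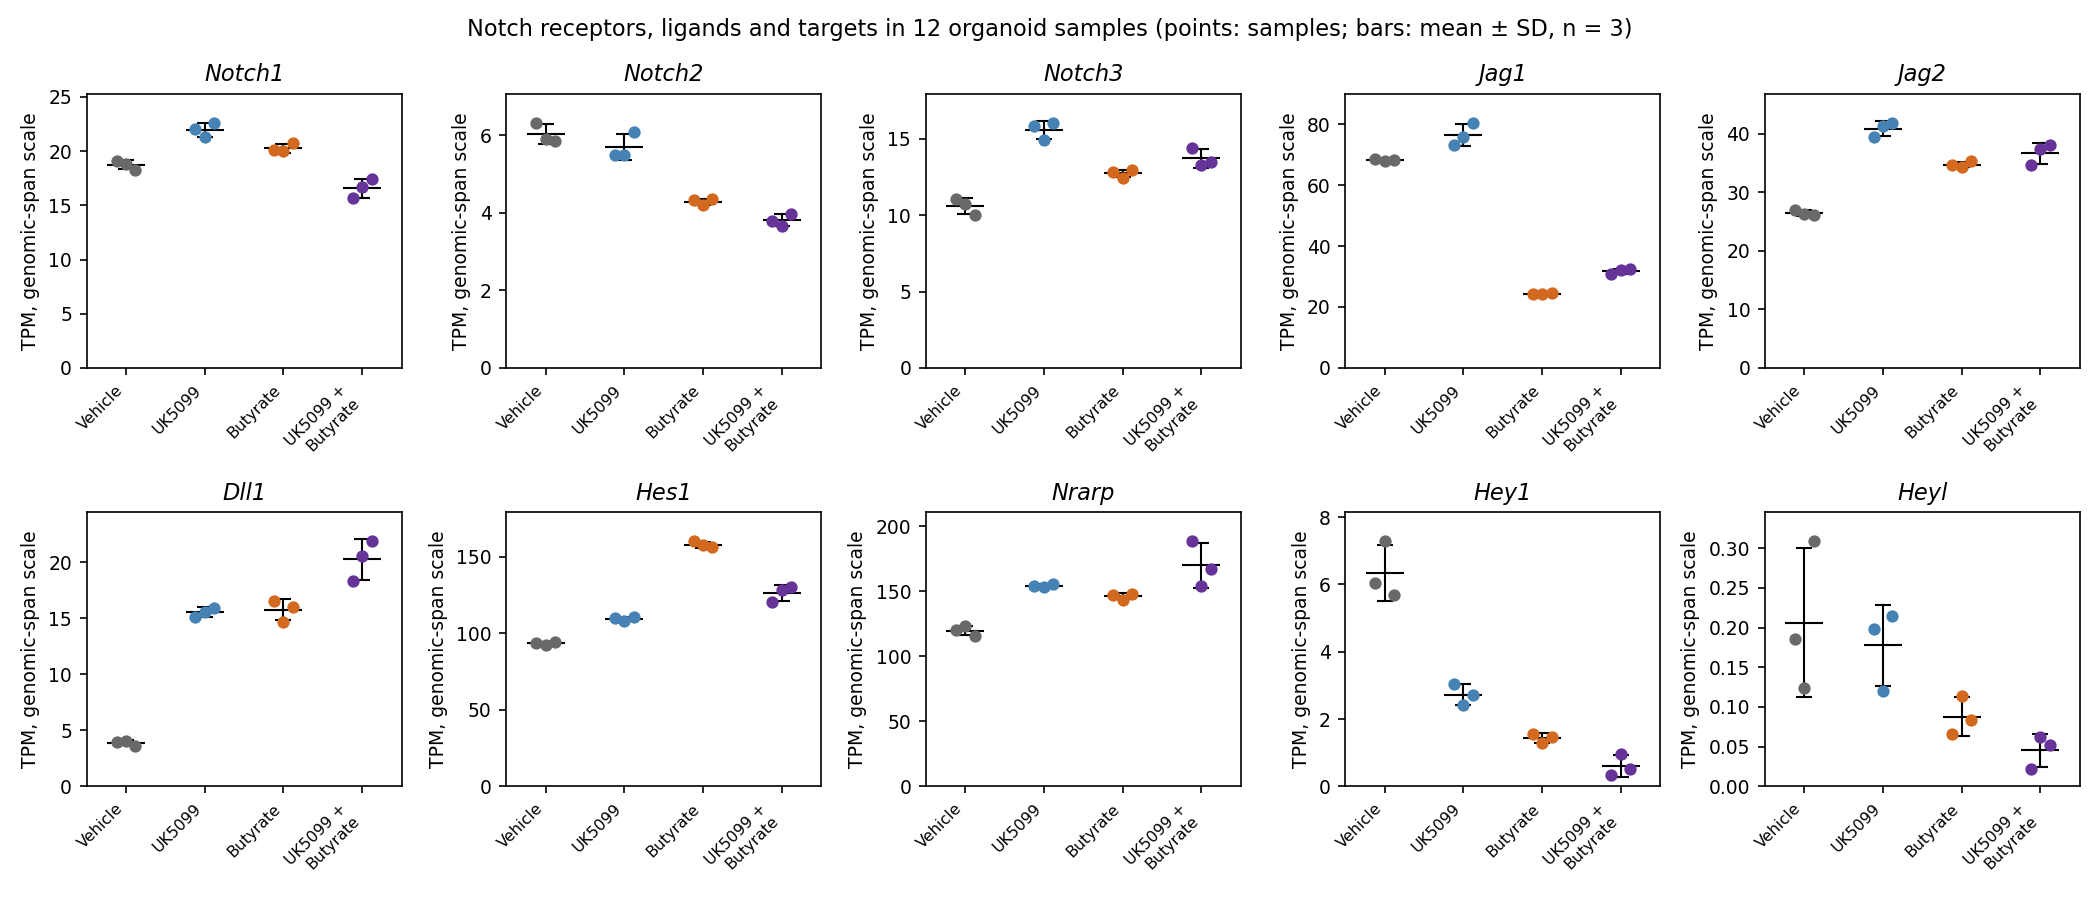
TPM on the genomic-span scale (vertical axis, from 0, a separate scale per gene) of the 10 members in the 4 groups of 3 samples. Points are samples and bars are the mean ± SD. Dll1 went from 3.64 to 4.06 TPM in vehicle to at least 14.7 TPM in all treated samples, Jag1 was 24.2 to 32.3 TPM wherever butyrate was present, and Hey1 was lower in each treated group than in vehicle.

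In vehicle, the ligand Jag1 was the most abundant member per exonic length, at 232.0 ± 1.55 exonic TPM (SD, n = 3). The targets Hes1 and Nrarp followed, at 88.4 ± 1.27 and 67.5 ± 1.85 exonic TPM. Jag2 was next at 47.0 ± 0.595, then Notch1 at 43.6 ± 0.755, Notch2 at 43.1 ± 1.66 and Notch3 at 34.0 ± 1.57. With these exonic lengths Notch1 and Notch2 did not differ beyond their spread, and the values of their samples overlapped. Dll1 at 4.94 ± 0.259 and Hey1 at 4.26 ± 0.554 also overlapped, and Heyl was lowest at 0.371 ± 0.171. Under the combination the order at the top had changed. Hes1 was then the highest at 130.4 ± 5.82 exonic TPM, with Jag1 at 118.1 ± 3.64 and Nrarp at 104.4 ± 10.1, while Dll1 stood at 28.1 ± 2.61, close to Notch2 at 29.7 ± 1.20, with Hey1 at 0.440 ± 0.240 and Heyl at 0.0895 ± 0.0410 still the lowest.

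The first question was what each drug did to the ligands, the proteins that one cell shows to another. Dll1, a Delta-like ligand (ENSMUSG00000014773, chr17:15587616-15597134 in the table, for which the submitters' processing notes name GRCm39), was at 3.95, 4.06 and 3.64 TPM in the vehicle samples. Under UK5099 it was at 15.1, 15.6 and 15.9 TPM. Under butyrate it was at 16.5, 14.7 and 16.0 TPM, and under the combination at 18.3, 20.6 and 21.8 TPM. All 9 treated samples lay above all vehicle samples, and the combination lay above both single drugs, which overlapped each other. The mean was 4.0-fold that of vehicle under UK5099, 4.06-fold under butyrate and 5.21-fold under the combination. The coefficients were 1.76 ± 0.0648 (SE, limma adjusted p = 4.89e-08), 1.78 ± 0.0648 (limma adjusted p = 1.49e-08) and 2.12 ± 0.0648 (limma adjusted p = 2.55e-09). Dll1 was thus the only member called with each drug alone and with both. Between 248 and 289 fragments per sample lay behind the vehicle values, and between 1064 and 2177 behind the treated ones.

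Jag1 (ENSMUSG00000027276, chr2:136923376-136958564), a Jagged ligand, moved the other way where butyrate was present. Its values were 68.5, 67.8 and 68.2 TPM in vehicle and 73.0, 75.9 and 80.4 TPM under UK5099. They were 24.3, 24.2 and 24.5 TPM under butyrate and 30.9, 32.2 and 32.3 TPM under the combination. No 2 groups overlapped, and the order was butyrate, combination, vehicle and UK5099, from low to high. Butyrate left 0.357 of the vehicle mean, a coefficient of -1.45 ± 0.0314 (limma adjusted p = 7.91e-10), and the combination left 0.467 of it, with -1.08 ± 0.0314 (limma adjusted p = 1.90e-09). The call under butyrate held with median of ratios scaling, at -1.14, but that under the combination did not, at -0.62. UK5099 alone raised Jag1 by a coefficient of 0.16 ± 0.0314 (limma adjusted p = 0.00222), well short of the limit of 1.

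Jag2, the other Jagged ligand (ENSMUSG00000002799, chr12:112871439-112893396), rose with all 3 treatments without being called. It was at 26.1 to 26.9 TPM in vehicle, 39.4 to 41.9 under UK5099, 34.4 to 35.3 under butyrate and 34.6 to 38.04 under the combination. The coefficients were 0.61, 0.38 and 0.45, each with an SE of 0.0352, and limma adjusted p-values were 8.27e-07, 8.23e-06 and 1.67e-06. All treated samples lay above all vehicle samples, and the butyrate and combination groups overlapped.

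These changes altered the makeup of the ligand RNA within each sample, a measure that no scaling between samples can move. Of the summed exonic TPM of the 3 ligands, Jag1 made up 81.7% ± 0.267 in vehicle, 73.8% ± 0.461 under UK5099, 50.3% ± 0.440 under butyrate and 54.4% ± 0.900 under the combination (SD, n = 3). Jag2 went from 16.6% ± 0.192 in vehicle to 20.6% ± 0.375, 37.5% ± 0.235 and 32.7% ± 0.273. Dll1 went from 1.74% ± 0.0977 to 5.60% ± 0.0941, 12.2% ± 0.605 and 12.9% ± 0.634. The Dll1 shares of the butyrate and combination groups overlapped. The median ratio of Jag1 to Dll1 was 46.4 in vehicle, 13.03 under UK5099, 4.09 under butyrate and 4.19 under the combination, with ranges of 44.7 to 50.2, 12.96 to 13.5, 3.93 to 4.41 and 3.96 to 4.51. The summed ligand level was 283.9 ± 1.42 exonic TPM in vehicle, 357.7 ± 11.6 under UK5099, 178.5 ± 2.23 under butyrate and 217.3 ± 10.01 under the combination.

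**Figure D2:**
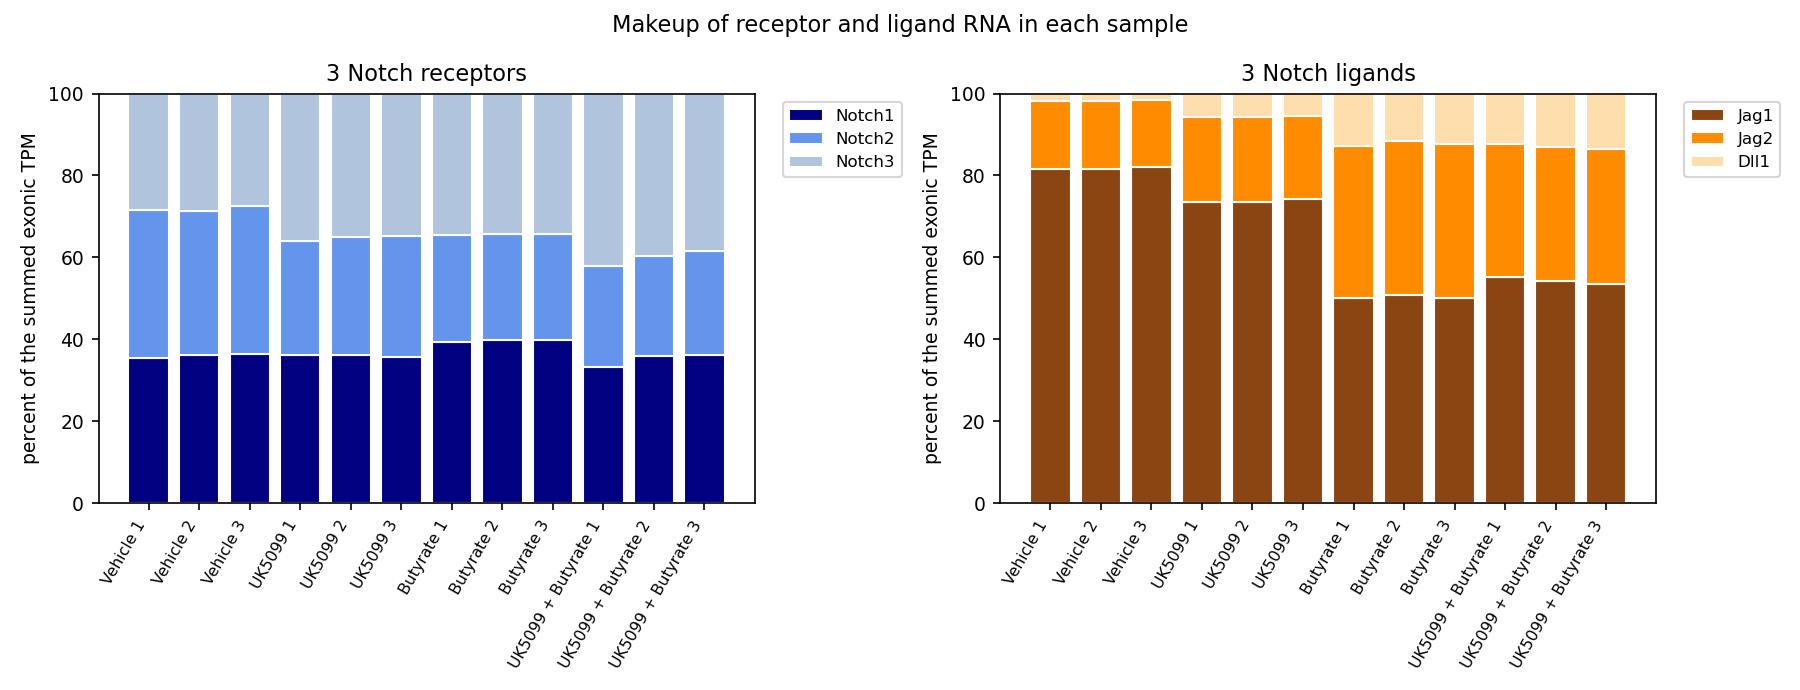
Percent of the summed exonic TPM (vertical axis, 0 to 100) held by each of the 3 receptors (left) and each of the 3 ligands (right) in the 12 samples. Jag1 goes from 81.7% of the ligand RNA in vehicle to 50.3% under butyrate while Dll1 and Jag2 take larger shares, and the receptor shares shift from Notch2 to Notch3.

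The receptors differed less. In the comparisons with vehicle (UK5099, butyrate, combination) limma called 0 of 3, where 1.84%, 3.54% and 6.42% of all genes were called. With shares that small, 0 of 3 does not set the receptors apart from other genes. At an unadjusted threshold of 0.05 the counts came to 2, 3 and 3 of them, where 47.3%, 56.3% and 60.6% of all genes passed. The other tool, voom on recovered fragments, also called 0, and its share over all genes was not computed. Notch3 (ENSMUSG00000038146, chr17:32339794-32385826) was at 11.1, 10.7 and 10.01 TPM in vehicle and 15.8, 14.9 and 16.0 TPM under UK5099. Under butyrate it was at 12.4 to 12.9 TPM and under the combination at 13.3 to 14.4 TPM. Every treated sample lay above every vehicle sample, and UK5099 gave the highest values. The coefficients were 0.52 ± 0.0420 (limma adjusted p = 7.85e-06), 0.24 ± 0.0420 (limma adjusted p = 0.000732) and 0.34 ± 0.0420 (limma adjusted p = 5.49e-05).

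Notch2 (ENSMUSG00000027878, chr3:97920843-98057677) was at 5.87 to 6.32 TPM in vehicle and 5.50 to 6.08 under UK5099, and these groups overlapped. It was at 4.20 to 4.35 TPM under butyrate and 3.67 to 3.98 under the combination, below every vehicle sample. Butyrate lowered Notch2 by a coefficient of -0.41 ± 0.0400 (limma adjusted p = 1.27e-05) and the combination by -0.55 ± 0.0400 (limma adjusted p = 1.10e-06), and with median of ratios scaling these were -0.14 and -0.16. For UK5099 the coefficient was -0.071 ± 0.0400 (limma adjusted p = 0.207), with a 95% interval of -0.16 to 0.020, and it turned to 0.056 with median of ratios scaling.

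Notch1 (ENSMUSG00000026923, chr2:26347915-26406675), the receptor whose loss in stratified epithelia disturbs differentiation, was at 18.3 to 19.1 TPM in vehicle and 21.3 to 22.6 under UK5099. It was at 19.97 to 20.7 TPM under butyrate and 15.7 to 17.4 under the combination. On the deposited scale it thus lay above vehicle with each drug alone and below vehicle with both. UK5099 raised Notch1 by 0.22 ± 0.0365 (limma adjusted p = 0.000881), and the coefficient was 0.11 ± 0.0365 for butyrate (limma adjusted p = 0.0335), which was 0.41 with median of ratios scaling (limma adjusted p = 2.24e-06) and 0.23 with exonic length (limma adjusted p = 0.000759). The combination gave -0.17 ± 0.0365 (limma adjusted p = 0.00289), a direction that turned to 0.27 with median of ratios scaling, to 0.30 with quantile normalisation and to 0.29 with voom on recovered fragments. Without the 2 libraries that stood apart it was -0.13 (limma adjusted p = 0.0126). With exonic length it was -0.049 (limma adjusted p = 0.335). The exonic TPM of Notch1 was 39.6 to 44.3 under the combination and 42.8 to 44.3 in vehicle, which overlapped.

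Shares within the receptor RNA do not depend on the scaling between samples, but they do depend on the exonic lengths used. Notch2 went from 35.7% ± 0.583 of exonic TPM in vehicle to 28.7% ± 0.813 under UK5099, 25.9% ± 0.166 under butyrate and 24.8% ± 0.510 under the combination. Notch3 went from 28.2% ± 0.578 to 35.3% ± 0.565, 34.4% ± 0.166 and 40.0% ± 1.87. Notch1 was at 36.1% ± 0.506 in vehicle, 36.1% ± 0.345 under UK5099, 39.7% ± 0.323 under butyrate and 35.1% ± 1.65 under the combination. All butyrate samples, at 39.3% to 39.9%, lay above all samples of the other groups. The order in vehicle was thus Notch1, Notch2 and Notch3, with the first pair not separated, and under the combination it was Notch3, Notch1 and Notch2 with no overlap. The exonic lengths were 14232 bases for Notch1, 10782 for Notch2 and 8089 for Notch3, and other lengths could change either order. These shares are given as descriptions, with no test.

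The target genes did not move as 1 block. Hes1 (ENSMUSG00000022528, chr16:29883202-29886614), a repressor of differentiation genes, was at 93.9, 92.4 and 94.5 TPM in vehicle, 110.1, 108.4 and 110.4 under UK5099, 160.2, 157.8 and 156.3 under butyrate and 120.8, 128.5 and 130.3 under the combination. No 2 groups overlapped, and butyrate alone gave the highest level. The coefficients were 0.23 ± 0.0259 for UK5099 (limma adjusted p = 7.72e-05), 0.75 ± 0.0259 for butyrate (limma adjusted p = 1.08e-08) and 0.43 ± 0.0259 for the combination (limma adjusted p = 2.51e-07). With median of ratios scaling the butyrate value was 1.06, past the limit of 1.

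Hey1 (ENSMUSG00000040289, chr3:8728419-8732316), a repressor related to Hes1, went down in all 3 treatments. It was at 6.04, 7.28 and 5.69 TPM in vehicle, 3.05, 2.41 and 2.73 under UK5099, 1.57, 1.28 and 1.47 under butyrate and 0.326, 0.956 and 0.515 under the combination. No 2 groups overlapped, and the steps went down from vehicle to UK5099, butyrate and the combination. UK5099 left 0.431 of the vehicle mean, butyrate 0.227 and the combination 0.0945. The coefficients were -0.97 ± 0.139 (limma adjusted p = 0.000334), -1.58 ± 0.139 (limma adjusted p = 5.73e-06) and -2.21 ± 0.139 (limma adjusted p = 3.50e-07). Hey1 was a low gene, with 156 to 185 fragments per vehicle sample and 14 to 37 per combination sample, and the 3 combination samples spread widely. The UK5099 value lay at the edge of the limit of 1. It was past it without the first vehicle sample (-1.0003), without the third vehicle sample (-1.04) and without the first UK5099 sample (-1.03), and also with voom on recovered fragments (-1.05). With median of ratios scaling (-0.83), quantile normalisation (-0.82) and exonic length (-0.88) it fell short of the limit.

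Heyl (ENSMUSG00000032744, chr4:123127349-123143668), the third of these repressors, was near the floor, with 13 to 42 fragments per vehicle sample. It had 15 to 29 fragments per sample under UK5099, 10 to 16 under butyrate and 4 to 10 under the combination. The mean TPM was 0.206, 0.178, 0.0879 and 0.0455 in these groups. The combination coefficient was -0.20 ± 0.0526 (limma adjusted p = 0.00773), which the pseudocount of 1 keeps small at such levels, and it was -1.04 with a pseudocount of 0.1. Without the 2 libraries that stood apart it was -0.19 (limma adjusted p = 0.0422). For UK5099 and butyrate the limma adjusted p-values were 0.709 and 0.0417, and no change was detectable at this depth under the limit of 0.01.

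Nrarp (ENSMUSG00000078202, chr2:25070770-25073351), which Notch induces and which in turn restrains it, was at 115.9 to 123.3 TPM in vehicle, 153.0 to 155.6 under UK5099, 143.4 to 147.6 under butyrate and 153.9 to 188.3 under the combination. All treated samples lay above all vehicle samples, and the UK5099 and combination groups overlapped. The coefficients were 0.36 ± 0.0600 (limma adjusted p = 0.000853), 0.28 ± 0.0600 (limma adjusted p = 0.00260) and 0.50 ± 0.0600 (limma adjusted p = 4.91e-05). Hes1 and Nrarp thus rose while Hey1 fell in the same samples. The median ratio of Hes1 to Hey1 in exonic TPM was 21.8 in vehicle (17.8 to 23.3), 56.8 under UK5099 (50.7 to 63.1), 149.6 under butyrate (143.3 to 172.9) and 355.5 under the combination (188.7 to 520.7), with no overlap between groups.

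Counted together, 1 of the 10 members was called under UK5099 (Dll1), where 1.84% of all genes were called. Under butyrate 3 of 10 were called (Dll1, Jag1 and Hey1), where 3.54% of all genes were, and under the combination the same 3 were called, where 6.42% were. By the adjusted p-value alone, 8 of 10 passed under UK5099 (33% of all genes), 8 under butyrate (45.6%) and 10 under the combination (51%). Of these, 7 were higher and 1 lower under UK5099, 5 higher and 3 lower under butyrate, and 5 of each under the combination, where Notch1 was among the lower. With median of ratios scaling 7 were higher and 1 lower, then 6 and 3, and 6 and 3, with Notch1 among the higher. After that scaling 13.5%, 18.5% and 21.7% of all genes passed upwards and 13.7%, 20.3% and 22.5% downwards. On the deposited scale 8.24%, 9.7% and 10.1% of all genes passed upwards and 24.7%, 35.9% and 40.8% downwards. The median coefficient of the members was 0.22, 0.17 and 0.088, beside -0.034, -0.074 and -0.11 over all 24674 genes. Only 13345 of these genes averaged 1 TPM or more, and the shares of genes that passed or were called were not computed among them.

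**Figure D3:**
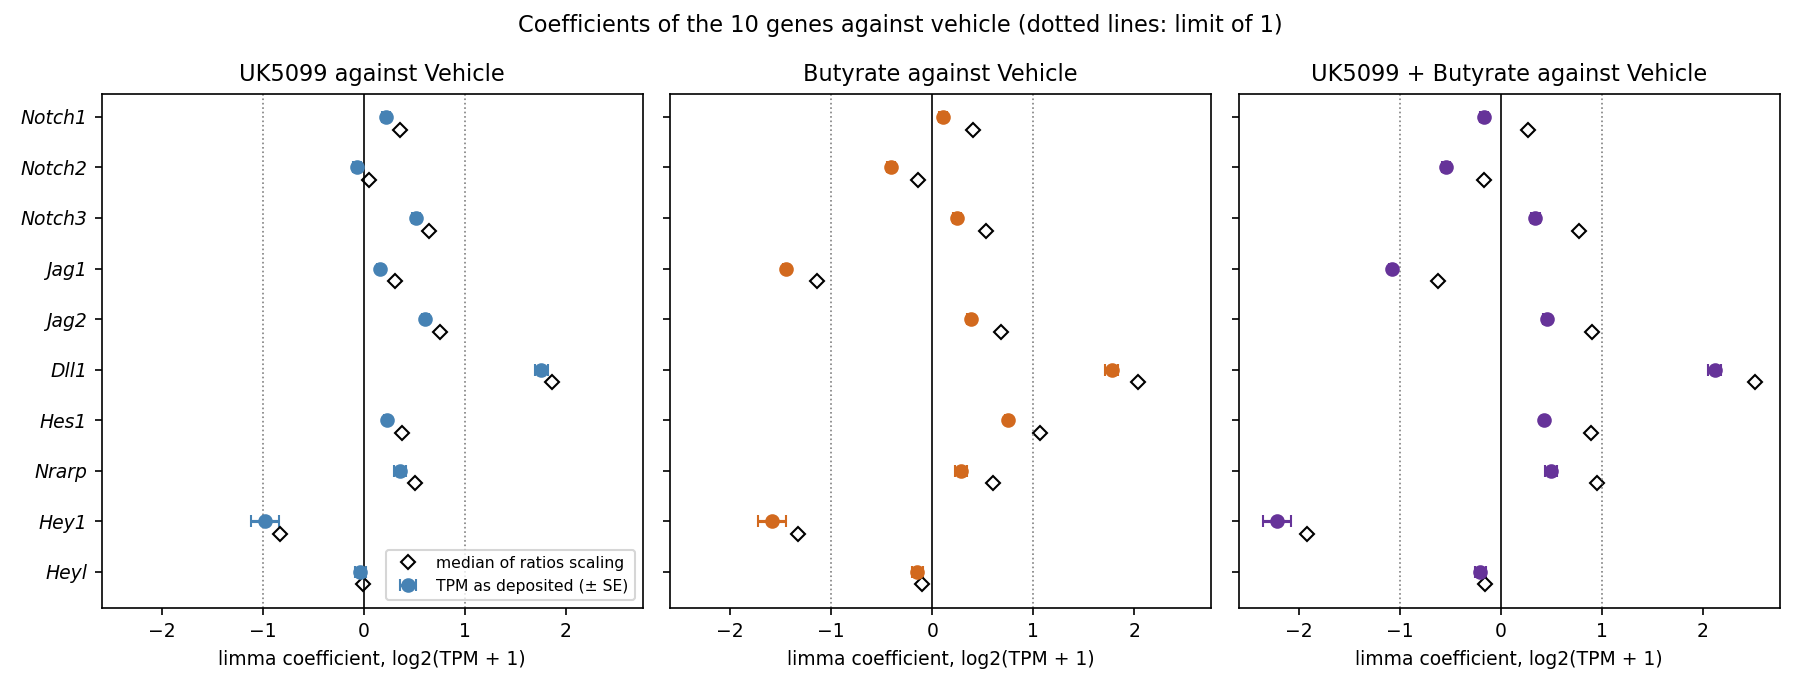
limma coefficients of the 10 members against vehicle (horizontal axis, log2(TPM + 1) scale) for UK5099, butyrate and the combination. Filled circles with SE bars are the deposited TPM, open diamonds the values with median of ratios scaling, and dotted lines the limit of 1. The diamonds lie to the right of the circles, by more in the butyrate and combination panels, and cross 0 for Notch2 in the UK5099 panel and Notch1 in the combination panel.

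The second question was whether the effect of both drugs was the sum of the effects of each. The interaction term of the model tests this on the log2(TPM + 1) scale. Dll1 was the 1 member called, where 1.01% of all genes were. The single coefficients of Dll1 summed to 3.54, the combination gave 2.12, and the interaction was -1.42 ± 0.0917 (limma adjusted p = 7.89e-06). By the adjusted p-value alone 6 of 10 members passed, where 13.4% of all genes did. Of the 6, 5 had a negative and 1 a positive interaction, while 6.38% of all genes passed with a negative and 7.01% with a positive one. For Hes1 the sum was 0.98, the combination 0.43 and the interaction -0.55 ± 0.0367 (limma adjusted p = 9.89e-06). Jag2 had -0.54 ± 0.0498 (limma adjusted p = 6.97e-05), Notch1 -0.49 ± 0.0515 (limma adjusted p = 0.000144) and Notch3 -0.42 ± 0.0595 (limma adjusted p = 0.000937). Jag1 had a positive interaction of 0.21 ± 0.0443 (limma adjusted p = 0.00811), with a sum of -1.29 and a combination of -1.08. That of Jag1 just missed the limit of 0.01 with exonic length (limma adjusted p = 0.0102). With median of ratios scaling it passed (limma adjusted p = 0.00451).

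For Hey1 the sum was -2.56 and the combination -2.21, and the interaction of 0.35 ± 0.197 (limma adjusted p = 0.283) had a 95% interval of -0.098 to 0.79. Its sign turned with a pseudocount of 0.1 (-0.051), with 0.01 (-0.17) and with voom on recovered fragments (-0.21). For Nrarp the interval was -0.34 to 0.041, for Notch2 -0.19 to 0.061 and for Heyl -0.19 to 0.14. With median of ratios scaling the interaction of Dll1 was -1.38 and that of Hes1 -0.55.

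**Figure D4:**
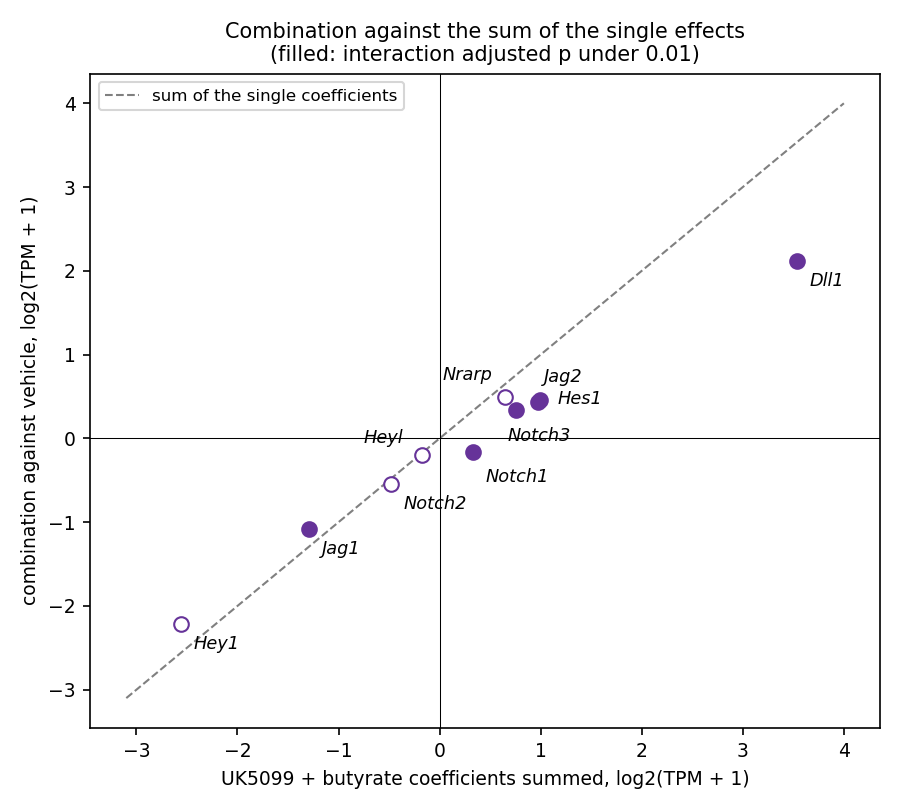
Coefficient of the combination against vehicle (vertical axis) beside the sum of the coefficients of UK5099 and butyrate (horizontal axis), both on the log2(TPM + 1) scale, for the 10 members. The dashed line is equality and filled points have an interaction with an adjusted p-value under 0.01. Dll1 lies 1.42 under the line, and Jag1 lies 0.21 above it.

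Against UK5099 alone, butyrate alone gave lower Jag1, with a coefficient of -1.61 ± 0.0314 (limma adjusted p = 1.07e-09), and Jag1 was the 1 member called, where 1.86% of all genes were. By the adjusted p-value alone 6 of 10 passed (37.5% of all genes). Dll1 was at 0.018 ± 0.0648 (limma adjusted p = 0.877) with a 95% interval of -0.13 to 0.16, and at 0.17 with median of ratios scaling (limma adjusted p = 0.0386) and 0.25 with quantile normalisation (limma adjusted p = 0.00933). Hes1 was higher under butyrate by 0.52 ± 0.0259 (limma adjusted p = 2.28e-07) and Hey1 lower by a coefficient of -0.61 ± 0.139 (limma adjusted p = 0.00509, and 0.0118 without the libraries that stood apart). With median of ratios scaling and quantile normalisation Hey1 was at -0.50 and -0.54 and did not pass (limma adjusted p = 0.0205 and 0.0138). With exonic length Hey1 was at -0.48 (limma adjusted p = 0.00631). Adding butyrate to UK5099 gave 2 calls, where 1.97% of all genes were called, and 8 of 10 members passed the adjusted p-value alone (43%). The calls were Jag1 at -1.24 ± 0.0314 (limma adjusted p = 4.31e-09) and Hey1 at -1.24 ± 0.139 (limma adjusted p = 3.91e-05), and with median of ratios scaling Jag1 was at -0.93 and no longer called. Adding UK5099 to butyrate gave 0 calls by limma, where 0.908% of all genes were called, while 5 of the 10 members had an adjusted p-value under 0.01, against 27.5% of all genes, and 8 had an unadjusted p-value under 0.05, against 42.6% of all genes. In that comparison Jag1 was higher by 0.37 ± 0.0314 (limma adjusted p = 1.69e-05) and Dll1 higher by 0.34 ± 0.0648 (limma adjusted p = 0.00256). Hes1 was at -0.32 ± 0.0259 (limma adjusted p = 1.41e-05), Notch1 at -0.27 ± 0.0365 (limma adjusted p = 0.000304) and Hey1 at -0.63 ± 0.139 (limma adjusted p = 0.00601, and 0.0237 without the libraries that stood apart). Hey1 was past the limit of 1 there with a pseudocount of 0.1 (-1.24) and with voom on recovered fragments (-1.26). With median of ratios scaling and quantile normalisation it was at -0.59 and -0.61 and did not pass (limma adjusted p = 0.0148 and 0.0111). With exonic length it was at -0.52 (limma adjusted p = 0.00505). The comparisons share samples, so their values are given side by side only.

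A list of 52 other genes of the pathway was read next, all of them listed in the table. Under UK5099, 1 of the 52 was called (Dlk2), and under butyrate 2 were (Dlk2 and Furin), while under the combination 3 were, Dlk2 and Furin among them. These shares were close to those of all genes (1.84%, 3.54% and 6.42%). All 3 treatments raised Dlk2, a Delta-like protein without the usual receptor-binding domain. It was at 0.453 to 0.799 TPM in vehicle, 2.72 to 3.19 under UK5099, 7.28 to 7.56 under butyrate and 8.26 to 8.98 under the combination. No 2 groups of Dlk2 overlapped, and the coefficients were 1.31 ± 0.0755 (limma adjusted p = 8.32e-07), 2.41 ± 0.0755 (limma adjusted p = 6.13e-09) and 2.60 ± 0.0755 (limma adjusted p = 1.87e-09). Its interaction of -1.11 ± 0.107 was also called (limma adjusted p = 8.58e-05).

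Furin, the protease that cuts Notch receptors on their way to the surface, fell by steps in the opposite direction. It was at 114.2 to 117.3 TPM in vehicle, 86.3 to 87.9 under UK5099, 51.6 to 54.5 under butyrate and 41.2 to 41.4 under the combination. The coefficient was -0.40 ± 0.0194 under UK5099 (limma adjusted p = 2.77e-07), -1.10 ± 0.0194 under butyrate (limma adjusted p = 2.45e-10) and -1.46 ± 0.0194 under the combination (limma adjusted p = 3.01e-11). With median of ratios scaling the butyrate value of Furin was -0.79 and was not called, and the combination value was -1.0015.

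By the adjusted p-value alone, 4 of the 52 were higher and 22 lower under UK5099, 6 and 29 under butyrate, and 9 and 31 under the combination. The medians of the list were -0.091, -0.20 and -0.30, lower than those of all genes tested (-0.034, -0.074 and -0.11) and less low than those of genes averaging 1 TPM or more (-0.12, -0.30 and -0.41). With median of ratios scaling, chosen after these counts were seen, 8 were higher and 9 lower under UK5099, 13 and 17 under butyrate, and 18 and 19 under the combination. Beside these, 13.5%, 18.5% and 21.7% of all genes passed upwards and 13.7%, 20.3% and 22.5% downwards. Of the 11 corepressors, 8 were lower under UK5099, 9 under butyrate and 9 under the combination, against 1 higher each time, and 5, 7 and 8 were lower and 1 higher each time after that scaling. Of the 10 genes that cut receptors and ligands, 1, 2 and 2 were higher and 5, 8 and 7 lower, and after that scaling 2, 3 and 5 were higher and 3, 4 and 4 lower. Of the 9 genes of the nuclear activator complex, 1, 0 and 1 were higher and 5, 7 and 8 lower, and after it 3, 2 and 3 were higher and 1, 3 and 4 lower. Of the 5 genes for sugar transferases acting on receptors, 0, 1 and 3 were higher and 1, 1 and 1 lower, and after it 0, 3 and 4 were higher and 0, 0 and 1 lower. On the deposited scale the shares of all genes were 8.24%, 9.7% and 10.1% upwards and 24.7%, 35.9% and 40.8% downwards. The other 4 targets on the list, Hes5, Hes7, Hey2 and Dtx1, had at most 19 fragments in any sample and none passed. Dll4, the ligand of vessels, had at most 14 fragments in a sample.

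**Figure D5:**
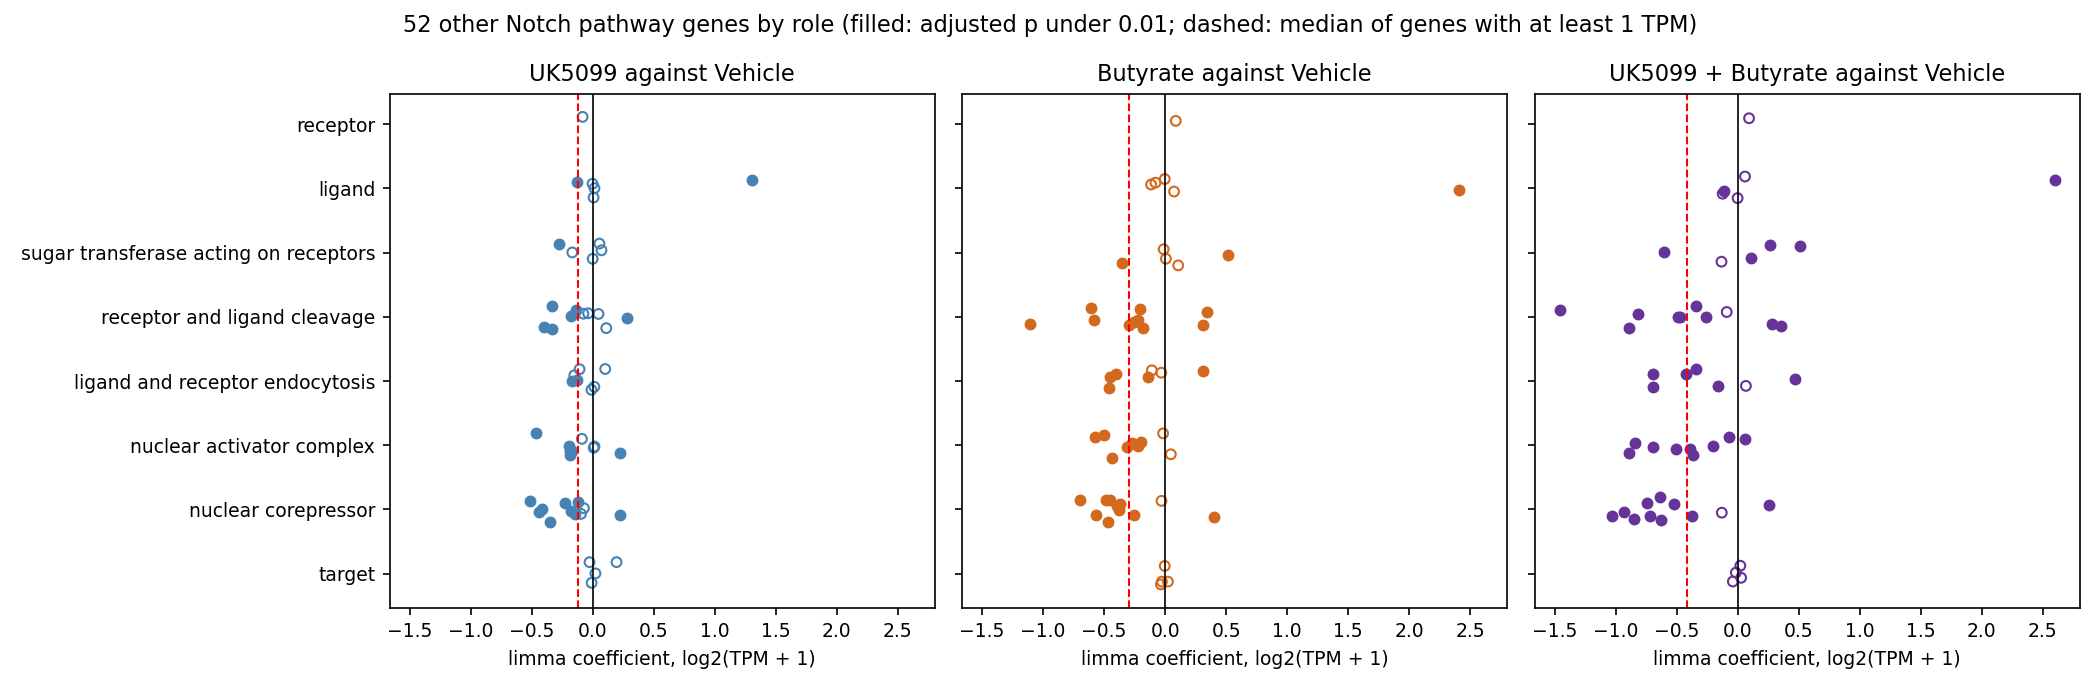
limma coefficients against vehicle (horizontal axis, log2(TPM + 1) scale) of the 52 other pathway genes, 1 point per gene, in rows by role, with points spread vertically for legibility. Filled points have an adjusted p-value under 0.01, and the dashed line is the median of genes averaging 1 TPM or more. Dlk2 stands alone on the right, up to 2.60 under the combination, and the corepressors lie mostly at or left of the dashed line.

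The cell types that could carry these genes were read from fixed marker lists. All 5 basal markers were listed, and their summed level on the genomic-span scale was 6531 to 6657 TPM in vehicle, 13496 to 13878 under UK5099, 6920 to 7158 under butyrate and 9983 to 10391 under the combination. Under butyrate 2 of the 5 passed the adjusted p-value upwards (Krt5 and Trp63) and 3 downwards (Krt14, Krt15 and Itga6), with a median coefficient of -0.19, while 5 passed upwards under UK5099 and 4 under the combination. The 5 luminal markers summed to 4616 to 4801, 2737 to 2889, 2691 to 2725 and 1694 to 1914 TPM. The 6 suprabasal squamous markers summed to 438.4 to 488.4, 1006 to 1129, 1069 to 1073 and 1349 to 1732 TPM. Among the samples, low Jag1 thus came with low luminal sums in 2 groups, and the UK5099 group had low luminal sums with high Jag1. In bulk RNA, fewer cells of a type and less RNA per cell cannot be told apart, and the part of these lineage shifts in the values of the members was not tested.

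Cells outside the epithelium that use Notch were barely seen on the genomic-span scale, where genes with long introns count for less. The 4 of 5 endothelial markers that were listed summed to 0.0232 to 0.0661 TPM over the 12 samples, with none over 1 TPM in a group mean, and Emcn was not listed. The 5 of 6 mural and smooth muscle markers that were listed, from cells in which Notch3 and Heyl are prominent, summed to 0.633 to 1.27 TPM, and the 4 of 5 neuroendocrine markers to 0.230 to 1.20 TPM. The 5 fibroblast markers summed to 2.13 to 2.73 TPM in the other groups and to 10.6 to 10.9 TPM under butyrate, where Dcn alone was at 9.51 TPM. Of 5 leukocyte markers 3 were listed. Cd68, a lysosomal protein gene that other cells also express, made up nearly all of their sum on that scale. It was at 24.2, 30.2, 67.4 and 91.7 TPM in vehicle, UK5099, butyrate and the combination.

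Genes with the most similar profile were sought for each of the 9 members that reached 1 TPM, among 13344 other genes, by the smallest root mean square difference of centred log2(TPM + 1) over the 12 samples. For Dll1 they were Clca2 (0.116), Cldn1 (0.156) and Ltb4r2 (0.161), beside a spread of 0.832 for Dll1 itself. For Jag1 they were Hmga2 (0.0590), Nrp2 (0.0851) and Map7d1 (0.0905), beside 0.688. For Hey1 they were S100a1 (0.148), Chpf (0.150) and Cx3cl1 (0.151), beside 0.829. The nearest to Hes1 was Sh3rf2 (0.0611), to Nrarp Rpl10a (0.0568), to Jag2 Il6ra (0.0441), to Notch1 Plxnb1 (0.0433), to Notch2 Ncoa6 (0.0229) and to Notch3 Reep4 (0.0382). No member was among the 3 nearest of another. These genes were picked for their likeness in the same samples, and 12 samples in 4 groups leave few distinct profiles.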

How the data were processed

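The authors deposited TPM per gene for 12 samples. Per the labels, libraries were depleted of ribosomal RNA and sequenced as read pairs. The submitters' processing notes name STAR 2.7.9a, Partek and GRCm39, whereas the methods of the study give a different kit and instrument, GRCm38 and RSEM. Of the nuclear genes, 2.08% had the coordinates that GENCODE gives for GRCm38. The listed length was the genomic span in 100% of genes. Fragments were recovered from the smallest TPM steps, and 75.3% to 76.6% of protein-coding values under 1000 fragments were whole within 0.02 of a fragment. For exonic TPM these fragments were divided by GENCODE vM21 exonic lengths, with all annotated exons of a gene joined (23913 genes matched by ID).

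The model was that of the study: limma 3.58.1 in R 4.3.3 on log2(TPM + 1), fitted to all 12 samples and 24674 genes and holding terms for each drug and their interaction, with Benjamini-Hochberg adjustment and two-sided tests. The pseudocount of 1 was chosen here. All pairs of replicates differed by more than sampling noise (chi-square per degree of freedom 2.06 to 8.62). On simulated fragments for 24674 genes, 153 of 200 changed genes were recovered for UK5099 (130 of 130 with at least 4 TPM). For butyrate 153 were recovered (121 of 123), and for the interaction 157 (123 of 124). How often genes near the limit of 1 are missed, or unchanged genes called, in the measured samples was not tested. Alternatives were other pseudocounts, a filter, 2 scalings, another prior, the replicate number as a block, leaving out each sample, voom on recovered fragments and exonic length. The members, lists and tests were chosen with earlier results of these data known. Named genes were all members, pathway genes called in a comparison (1 is not reported here), and the 3 nearest profiles. The pathway gene targets at low counts and Dll4 were named after their values were seen. Python 3.11.15, numpy 2.4.6, pandas 2.3.3 and matplotlib 3.10.9 were used.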

Additional observations from a re-analysis of the deposited data

Results flagged for a closer look

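The effect of UK5099 on Dll1 differed with and without butyrate, and equally that of butyrate with and without UK5099, by the interaction term of the limma model. UK5099 raised Dll1 by a coefficient of 1.76 without butyrate and by 0.34 with it, and the interaction was -1.42 ± 0.0917 (limma adjusted p = 7.89e-06). It ranged from -1.47 to -1.35 when each sample was left out in turn, and was -1.65 with voom on recovered fragments.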

How the results depend on the processing

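The count of members called changed under some settings. The shares of all genes called under these settings were not computed, so the counts cannot be set against them. For UK5099 it was 2 with a pseudocount of 0.1, with voom on recovered fragments and without the 2 libraries that stood apart (chosen after seeing the data), and 1 to 2 when each sample was left out. For butyrate it was 4 with median of ratios scaling, quantile normalisation and voom, which added Hes1 (1.06, 1.04 and 1.07). For the combination it was 2 with median of ratios, quantile and exonic length, without Jag1 (-0.62, -0.64 and -0.97), 4 with pseudocounts of 0.1 and 0.01, which added Heyl (-1.04 and -1.95), and 3 with voom, where Heyl (-1.74) took the place of Jag1 (-0.64). For the combination against UK5099 it was 1 with median of ratios scaling and with quantile normalisation, and 3 with a pseudocount of 0.01, which added Heyl (-1.80), and with voom Heyl (-1.69) took the place of Jag1 (-0.95). For the combination against butyrate it was 1 with pseudocounts of 0.1 and 0.01 (Hey1 at -1.24 and -1.38) and with voom. Directions turned for the following genes, and the cause was not tested. For UK5099, Notch2 was at 0.0562 with median of ratios scaling, 0.0408 with quantile normalisation and 0.0696 with voom, and Heyl ranged from -0.0813 to 0.0282 with each sample left out in turn (above 0 without the third vehicle sample, and at 0.00372 without the second UK5099 sample). For the combination, Notch1 was at 0.27, 0.30 and 0.29 under these 3 settings. For butyrate against UK5099, Notch1 was at 0.0461, 0.14 and 0.0476, Nrarp at 0.0870, 0.12 and 0.0878 and at 0.0180 with exonic length, and Jag2 at 0.00194 with quantile normalisation. Dll1 ranged there from -0.0157 (without the first butyrate sample) to 0.0642, and was at -0.00200 without the first UK5099 sample and without both libraries that stood apart. For the combination against UK5099, Notch3 was at 0.12, 0.16 and 0.13, and Jag2 at 0.15, 0.18 and 0.15. The Hey1 interaction was at -0.0514 and -0.17 with pseudocounts of 0.1 and 0.01 and at -0.21 with voom, and the Heyl interaction ranged from -0.0854 to 0.0241, the latter without the second vehicle sample, and was at 0.00408 without the libraries that stood apart. Values of single members were counted under all settings but those that leave out 1 sample, with the fit without the 2 libraries included. Of these, 647 kept direction and side, 14 became called, 7 lost the call and 25 turned. With 1 sample left out 832 kept both, 3 became called and 5 turned.

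Samples with the same replicate number did not deviate together: over 18 pairs of groups and numbers the correlations ran from -0.107 to 0.0294, and 0 exceeded 0.1. A fit with the replicate number as a block left the counts of members called at 1 for UK5099, 3 for butyrate, 3 for the combination, 1 for the interaction, 1 for butyrate against UK5099, 2 for the combination against UK5099 and 0 for the combination against butyrate, and changed no call of a member. Shares of all genes called in that fit were not computed.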
